A study of Caenorhabditis elegans with 2 samples.

Results

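Small nucleolar RNA (snoRNA) genes that do not lie wholly inside a protein-coding gene on their own strand were examined for binding of MADF-5 in Caenorhabditis elegans. By this rule 163 of the 346 snoRNA genes of the Ensembl annotation of WBcel235 were members, and the other 183 lay inside a same-strand host. Of the 163, 109 overlapped no other gene and 33 lay inside a protein-coding gene on the opposite strand. Of the rest, 5 lay inside a non-coding gene on their own strand, and 16 had another kind of overlap. MADF-5 was mapped by chromatin immunoprecipitation with an anti-GFP antibody followed by sequencing, in 2 biological replicates of 1 group of whole L4 larvae collected at 50 hours. The worms were strain OP436, in which the integrated transgene wgIs436 carries C01G12.1 (madf-5) fused to TY1, EGFP and 3xFLAG on the fosmid 92D06, with unc-119(+) in an unc-119(tm4063) background. They had been synchronised by bleaching and starvation in the first larval stage, and chromatin was sheared by sonication. The tagged protein is thus a transgene product, the tissues of the worm are mixed, and no second condition was compared. The control library named in the labels was not analysed here.

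SnoRNAs guide chemical modification of ribosomal and spliceosomal RNA. Box C/D snoRNAs direct 2′-O-methylation with fibrillarin, and box H/ACA snoRNAs direct pseudouridylation with dyskerin. Many animal snoRNAs are cut from the introns of host genes, whereas a snoRNA gene without a host needs a promoter of its own. RNA polymerase III transcribes tRNA genes from box A and box B, a pair of promoter elements within the gene that the factor TFIIIC binds. In Saccharomyces cerevisiae the snoRNA gene SNR52 is transcribed by RNA polymerase III from a box A and a box B that precede the mature RNA. The MADF domain is a DNA-binding domain related to Myb and SANT domains.

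Promoter windows of 6 snoRNA genes are shown because they carry the feature on which the results turn, a box A and a box B of the tRNA type just before the gene. A window runs from 75 bp before the gene start (120 bp for K09E9.5) through the first 20 bases of the gene, 5′ to 3′ on the strand of the gene. Capitals mark the matched box A, then the matched box B. The gene itself is given for W03C9.9, where capitals mark box C near the 5′ end and box D near the 3′ end, and a tRNA gene bound by MADF-5 is added for comparison, with its boxes in capitals. The sequences are from the RefSeq copy of WBcel235.
T06C12.16, bound (chrV:15873907-15874001, minus strand): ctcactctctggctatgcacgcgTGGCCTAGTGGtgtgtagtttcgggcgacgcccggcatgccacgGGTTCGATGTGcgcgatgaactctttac
W03C9.9, bound (chrII:11960823-11960917, plus strand): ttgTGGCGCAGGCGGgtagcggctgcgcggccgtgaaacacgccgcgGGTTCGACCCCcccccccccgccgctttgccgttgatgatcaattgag
W03C9.9, the gene (chrII:11960898-11960959, plus strand): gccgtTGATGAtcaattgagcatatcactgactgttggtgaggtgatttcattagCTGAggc
F32E10.10, bound (chrIV:7574047-7574141, plus strand): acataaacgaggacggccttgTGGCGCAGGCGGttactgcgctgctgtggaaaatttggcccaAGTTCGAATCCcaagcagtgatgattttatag
C53B7.8, bound (chrX:6867863-6867957, plus strand): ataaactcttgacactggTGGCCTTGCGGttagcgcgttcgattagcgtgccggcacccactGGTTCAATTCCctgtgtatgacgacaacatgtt
ZK643.9, bound (chrIII:8937692-8937786, plus strand): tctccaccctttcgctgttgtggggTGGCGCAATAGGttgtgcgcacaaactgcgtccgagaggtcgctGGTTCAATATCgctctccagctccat
K09E9.5, not bound (chrX:15619371-15619510, plus strand): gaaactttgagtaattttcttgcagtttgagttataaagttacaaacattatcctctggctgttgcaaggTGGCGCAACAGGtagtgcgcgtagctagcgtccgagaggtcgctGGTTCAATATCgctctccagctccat
tRNA gene WBGene00014566, bound (chrIII:10624742-10624813, minus strand): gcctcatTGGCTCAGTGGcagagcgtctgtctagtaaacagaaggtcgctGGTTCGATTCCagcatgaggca
In the tRNA gene the boxes lie within the annotated gene, and in the snoRNA genes they lie before its annotated start or, in T06C12.16, ZK643.9 and K09E9.5, end a few bases past it. Where transcription begins was not measured.

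MADF-5 was found at 32 of the 163 snoRNA genes. A gene was counted as bound when its start lay within 500 bp of a peak summit of the conservative list, the 813 peaks past the authors' reproducibility threshold in data from both replicates. Of the 145 members with any of the 116935 ranked summits within 500 bp, these 32 are 22.1% (Wilson 95% interval 16.1 to 29.5, counting error only), where 3.82% of all 25103 genes with such a summit were bound. The other 18 members had no ranked summit that near, and 19.6% of all 163 were bound. Among snoRNA genes inside a same-strand host, 27 of 170 were bound (15.9%, 11.2 to 22.1), an interval that overlaps that of the members. Among nuclear tRNA genes 288 of 568 (50.7%, 46.6 to 54.8) were.

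Every list gave a share of members above that of all genes. In the other list made from both replicates 32 of 145 members were bound, against 3.77% of all genes. In the own thresholded list of replicate 1, 25 of the 117 members with a ranked summit of that replicate were bound (21.4%, 14.9 to 29.6), against 2.82% of all genes. In that of replicate 2, 18 of 113 were bound (15.9%, 10.3 to 23.8), against 1.53%. Genes that share a peak are counted once each, and C27H5.9 and C27H5.10 do, so the 32 genes stand at 31 distinct peaks. Both replicates listed 16 of the 32 by themselves, replicate 1 without replicate 2 listed 9, and replicate 2 without replicate 1 listed 2 (F12F6.11 and T10B9.11). Neither listed the other 5 (M03D4.78, F59C6.15, T28B8.11, Y53F4B.48 and W01C9.6). In the other list from both replicates 31 of the 32 were found again, all but W01C9.6, and C32F10.9 was bound there alone.

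The signal of a peak, the value the authors' caller gave it on a scale the sources used here do not state, had a median of 107 over the bound members, with a range of 67.9 to 187. Its median over the 813 peaks of the list was 75.6. The members' peaks ranked between 10 and 520 of 813 by signal. The members of highest signal were also those that each replicate listed by itself: of the first 15, 13 stood in the own lists of both replicates, and of the remaining 17, 3 did. The signal and the replicates' own lists come from the same libraries, so this is a description and not separate support.

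T06C12.16 (WBGene00045140, chrV:15873855-15873926, minus strand) had the highest signal, 187, at a summit at 15873972, −46 bp from its start. Its peak had a signal of 107.7 in replicate 1 and 79.95 in replicate 2, both in the replicates' own thresholded lists. W03C9.9 (WBGene00045127, chrII:11960898-11960959, plus strand), a box C/D snoRNA gene by its letters, had 182 at 11960844, −54 bp from the start, with 80.8 in replicate 1 and 102 in replicate 2. Each replicate listed W03C9.9 by itself too. T03F7.8 (WBGene00045071, chrV:11314258-11314332, plus strand) lies antisense within cutl-18, a cuticlin-like gene, and had 162 at −40 bp, with 86.9 in replicate 1 and 75.9 in replicate 2.

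The fourth highest peak stood near a pair of genes antisense within pdl-1, a gene of the PDE6-delta family, and its summit lay within 500 bp of a start of pdl-1 too. It had a signal of 148, with 91.0 in replicate 1 and 53.1 in replicate 2, and its summit at 7184102 lay −24 bp from the start of C27H5.9 (WBGene00044938, chrII:7184010-7184078, minus strand). From the start of C27H5.10 (WBGene00045090, chrII:7184419-7184492, minus strand) the same summit lay at 390 bp, past the end of that gene. C27H5.10 had no box pair, while C27H5.9 had one at −58 and −15 bp. The summit lies between these boxes of C27H5.9.

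T19B4.8 (WBGene00044930, chrI:5707046-5707119) had a signal of 147 at −42 bp, with 90.1 in replicate 1 and 59.6 in replicate 2. ZK265.10 (WBGene00045150, chrI:8259437-8259498) had 145 at −88 bp, with 67.3 in replicate 1 and 75.3 in replicate 2. F32E10.10 (WBGene00044947, chrIV:7574122-7574191) had 144 at −43 bp, with 76.8 in replicate 1 and 63.7 in replicate 2. All of these stood in the own lists of both replicates, and no other gene start lay within 500 bp of the summits at ZK265.10 and F32E10.10. Y39G10AR.24 (WBGene00044926, chrI:2410190-2410254) had 137 at −47 bp, with 81.7 in replicate 1 and 54.1 in replicate 2. Y23H5B.10 (WBGene00045093, chrI:2514168-2514311) had 131 at −26 bp, with 74.6 in replicate 1 and 50.7 in replicate 2. Of these 5 genes, Y23H5B.10 was the 1 outside the own list of replicate 2.

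Y75B12B.12 (WBGene00045129, chrV:15190976-15191093) had a signal of 125 at −51 bp, with 60.9 in replicate 1 and 59.7 in replicate 2. C41C4.11 (WBGene00045160, chrII:8107196-8107270) had 119.2 at −22 bp, with 72.7 in replicate 1 and 47.5 in replicate 2. C53B7.8 (WBGene00045176, chrX:6867938-6868008) had 119.0 at −94 bp, with 57.8 in replicate 1 and 60.0 in replicate 2. C53B7.8 had the summit farthest upstream among the members with a box pair. T04A8.17 (WBGene00045118, chrIII:4689634-4689771), antisense within ppat-1, had 115 at 0 bp, the start itself, with 58.9 in replicate 1 and 56.7 in replicate 2. F12F6.11 (WBGene00077461, chrIV:11549793-11549864) had 111 at 12 bp and 48.2 in replicate 2. No ranked summit of replicate 1 lay within 500 bp of its start, and why none did was not tested. F12F6.11 is the 1 gene of the 15 that replicate 1 did not list. Protein-coding starts lay within 500 bp of the summits at Y75B12B.12 (Y75B12B.11), C41C4.11 (C41C4.9 and chst-1) and T04A8.17 (ppat-1).

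Over the other 17 bound members the signal was between 67.9 and 109.4, with 27.4 to 67.2 in replicate 1 and 24.8 to 68.5 in replicate 2. At 30 of the 32 members each replicate had a ranked summit within 100 bp of the shared one, and the replicates' summits were a median of 16 bp apart there (2 to 89). Spearman's rho between the signals of replicates 1 and 2 was 0.512 over the 29 distinct peaks among them. It is a description of peaks that were selected for reproducibility and share their libraries.

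**Figure D1:**
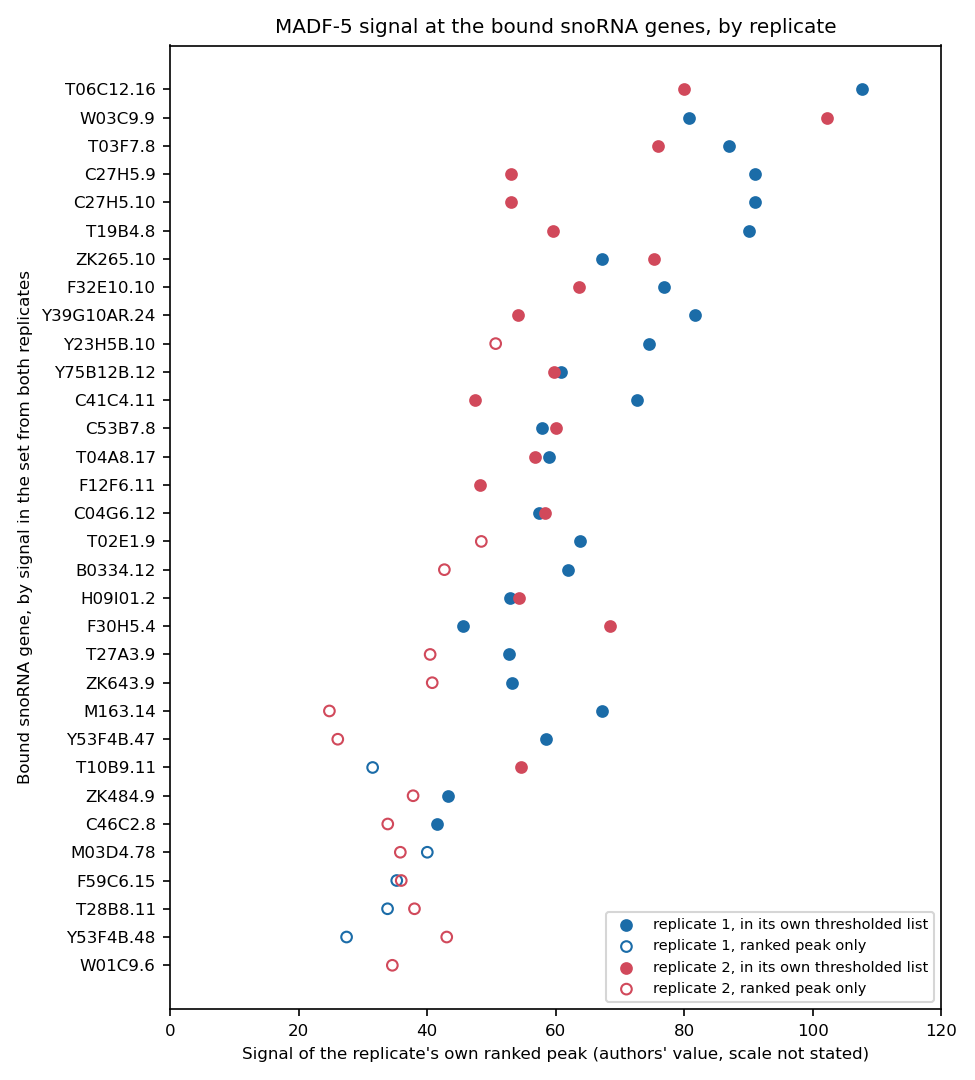
Signal of each bound member's peak in the ranked list of replicate 1 (blue) and replicate 2 (red), on the horizontal axis in the authors' units of unstated scale; genes run down the page by signal in the list from both replicates, and filled points stand in the replicate's own thresholded list. Most genes at the top have 2 filled points, the lowest 5 have none, and F12F6.11 and W01C9.6 have no ranked peak of replicate 1 within 100 bp.

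The summits lay just upstream of the snoRNA genes. Measured in the direction of transcription, the nearest summit lay a median of −36 bp from the start of the 32 bound members, with an interquartile range of −48.75 to −23 bp. It was upstream at 26 of them, 25 of these between −94 and −22 bp, at the start at 1 and downstream at 5. At bound snoRNA genes inside hosts the median was −35 bp (interquartile range −64 to −8.5 bp, 27 genes), and at bound tRNA genes it was 20 bp (−5 to 44.25 bp, 288 genes), within the gene. The peak region spans both sides of a summit, so the offset gives the centre of the signal rather than a base that is contacted.

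**Figure D2:**
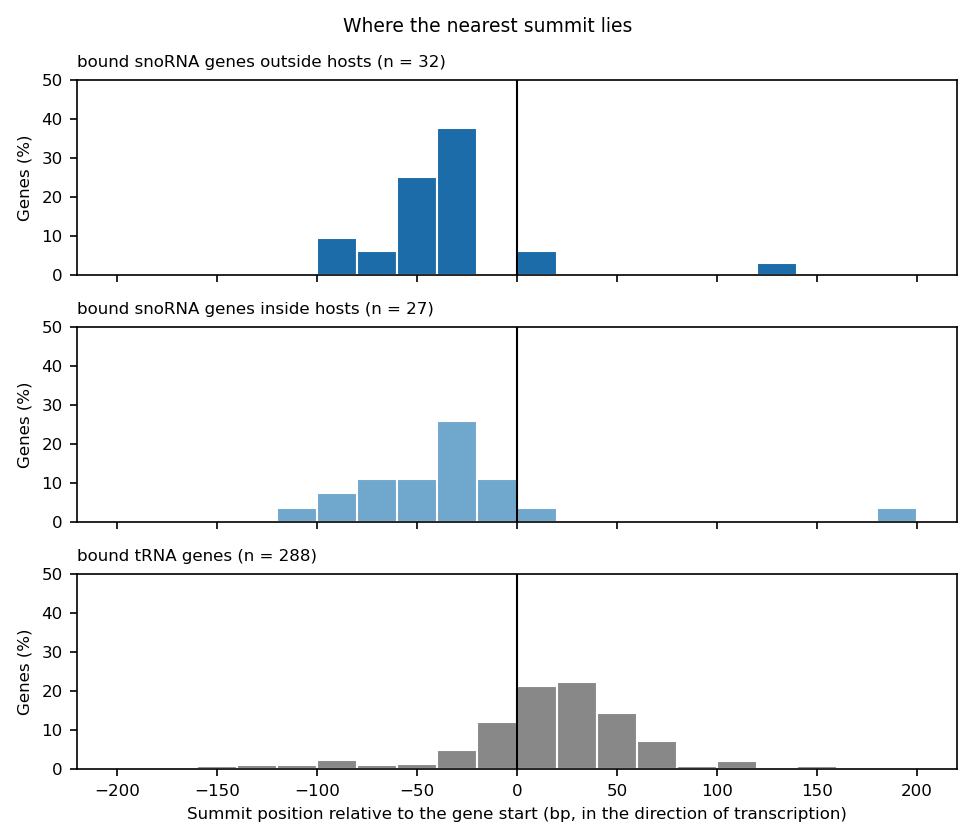
Distance from gene start to nearest summit, in bins of 20 bp in the direction of transcription, as a percentage of the bound genes of each kind. The 32 members (top) and the 27 snoRNA genes inside hosts (middle) gather before the start, with medians of −36 and −35 bp, and the 288 tRNA genes (bottom) gather after it, with a median of 20 bp; summits farther than 200 bp from the start are counted in the total but not drawn.

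A box A and box B pair of the tRNA type preceded most bound members and few of the others. The pair was scored with matrices built from 595 (box A, 8 positions) and 586 (box B, 11 positions) of the 612 nuclear tRNA genes, on the strand of the gene, from 150 bp before its start through its first 20 bases. The threshold was the score that 1% of 19985 protein-coding windows of the same length pass, a log2 odds of −5.54. The bound member ZK265.10 passed it narrowly, at −5.24. The pair was found at 25 of 32 bound members (78.1%, 61.2 to 89.0) and at 8 of 131 unbound members (6.11%, 3.13 to 11.6). At the stricter score that 0.1% of coding windows pass, it was found at 20 bound members (62.5%) and 6 unbound ones (4.58%). Inside hosts it was found at 18 of 27 bound snoRNA genes (66.7%) and at 16 of 156 unbound ones (10.3%). Among 129 snRNA genes 12.4% had the pair, and 0.775% at the stricter score. A match of letters is not proof of a promoter, and the pair was chosen after the values had been seen.

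Read the other way, 25 of the 33 members with a pair were bound (75.8%, 59.0 to 87.2), and 7 of the 130 without one were (5.38%, 2.63 to 10.7). In replicate 1's own list 21 of the 33 with a pair and 4 of the 130 without were bound (63.6% and 3.08%), and in replicate 2's list 17 and 1 were (51.5% and 0.769%). Inside hosts 18 of 34 snoRNA genes with a pair were bound (52.9%) and 9 of 149 without (6.04%). Among members of 100 bp or less, all 19 with a pair were bound and 4 of 26 without. Among longer members 6 of 14 with a pair were bound and 3 of 104 without. By signal, it was found at 14 of the 15 highest bound members and at 11 of the other 17.

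The boxes stood at nearly the same place in each gene. In the 25 bound members with a pair, box A began at a median of −58 bp (−72 to −50) and box B at −14 bp (−28 to −6). Their starts were a median of 43 bp apart (38 to 44), and the median was also 43 bp in the 288 bound tRNA genes. All 288 had the pair, as did 611 of the 612 nuclear tRNA genes, bound or not (99.8%). The matrices were built from tRNA genes, so the presence of the pair in them was settled in advance. The summit lay between the start of box A and the end of box B at 20 of the 25 members, at 14 of 18 bound snoRNA genes with a pair inside hosts, and at 150 of the 288 tRNA genes. It lay a median of 18 bp after the start of box A in the members and 11.5 bp after it in the tRNA genes. Counted from the boxes rather than from the gene start, the members and the tRNA genes are thus closer to each other than counted from the gene start, where the medians are −36 and 20 bp.

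**Figure D3:**
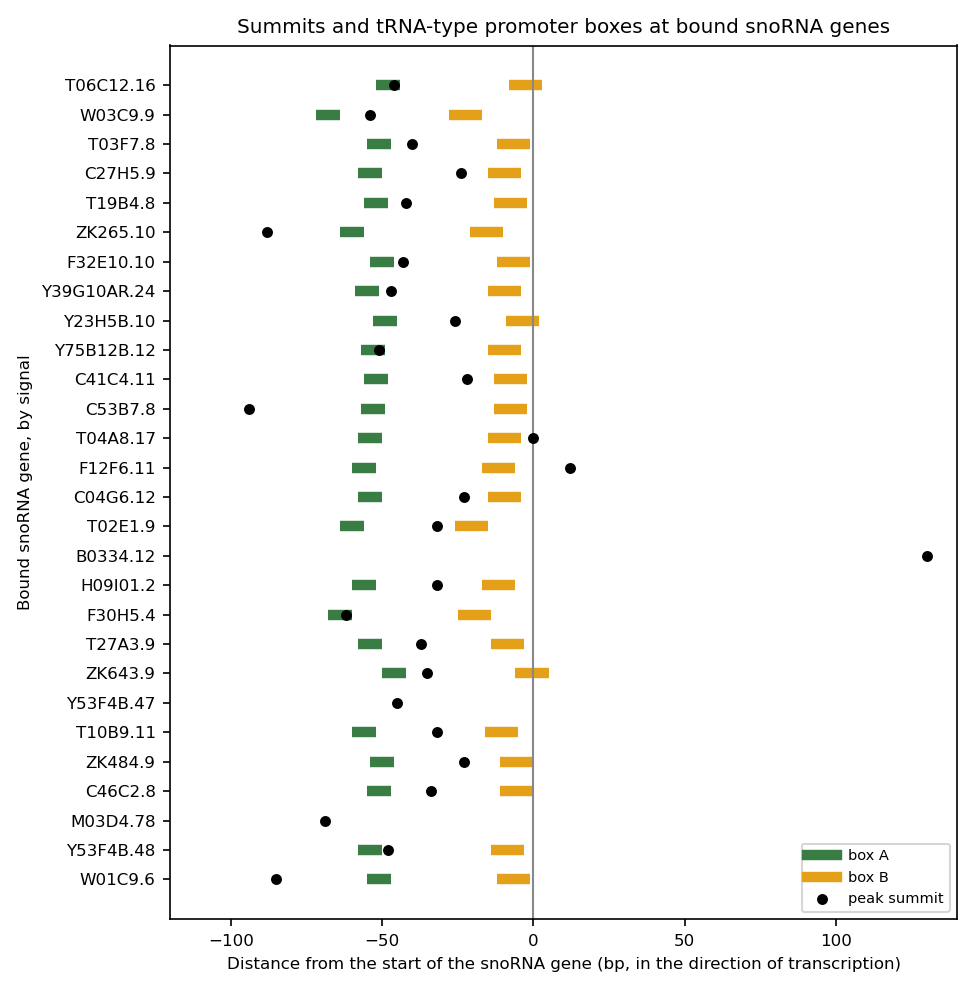
Position of the peak summit (black point), box A (green) and box B (orange) relative to the start of each bound member, in bp in the direction of transcription, for the 28 members with a summit within 150 bp; genes run down the page by signal. Box A begins between −72 and −50 bp and box B between −28 and −6 bp in every gene where a pair was found, and most summits lie between them; the summits of T28B8.11 (−352 bp), F59C6.15 (307 bp), C27H5.10 (390 bp) and M163.14 (467 bp) are outside the range drawn.

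Fixed letters gave a smaller difference of the same direction. The box B core, GTTCGANNC or GTTCAANNC on the strand of the gene within 300 bp before the start, was present at 15 of 32 bound members (46.9%, 30.9 to 63.6), 10 of 131 unbound members (7.63%, 4.20 to 13.5) and 2.77% of protein-coding windows. In the same windows the box A core, GNNNAGNGG, was present at 15 bound members (46.9%), 24 unbound ones (18.3%) and 7.21% of coding windows. TATAAA was about as frequent in both, at 6 bound members (18.8%) and 26 unbound ones (19.8%), with 25.3% of coding windows. The letters TTTT, a run of the kind at which RNA polymerase III stops, lay within 30 bases after the end of 24 bound members (75%, 57.9 to 86.7) and 53 unbound ones (40.5%, 32.4 to 49.0), with 49.4% of protein-coding gene ends. Inside hosts TTTT lay after 23 of 27 bound snoRNA genes (85.2%) and 83 of 156 unbound ones (53.2%). The box B core was present there at 7 bound (25.9%) and 10 unbound genes (6.41%). The box A core was present there at 7 (25.9%) and 22 (14.1%), and TATAAA at 5 (18.5%) and 16 (10.3%). GGAACNCG, letters that 20.2% of snRNA genes and 0.240% of protein-coding genes have within 150 bp before the start on their own strand, were found at 2 bound members (Y53F4B.47 and F59C6.15, neither with a box pair) and at 15 unbound ones (11.5%). These last letters were also chosen after the values had been seen.

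**Figure D4:**
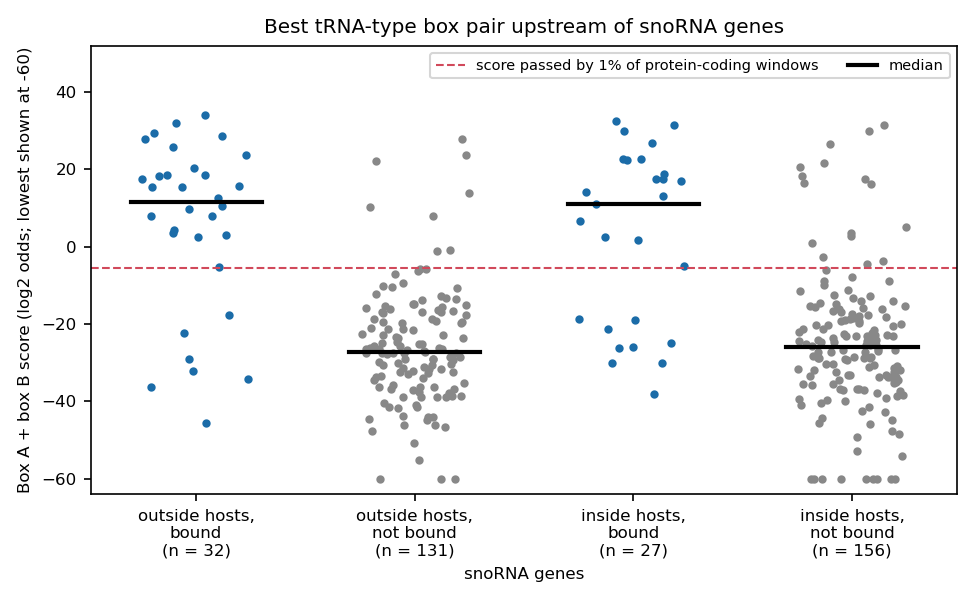
Score of the best box A and box B pair (log2 odds, vertical axis, lowest values drawn at −60) for bound and unbound snoRNA genes outside hosts and inside hosts, 1 point per gene; black bars are medians and the dashed line is the score that 1% of protein-coding windows pass. Of the 32 bound members 25 lie above the line, and of the 131 unbound members 8 do.

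Among the 7 bound members without a pair, the peak of 4 lay far from the start or nearer to another gene. M163.14 (467 bp, signal 88.9) had its summit nearest to the start of the tRNA gene WBGene00014449, and F59C6.15 (307 bp, 71.9) to that of the non-coding gene F59C6.19. T28B8.11 (−352 bp, 70.9) had no other gene start within 500 bp of its summit, and C27H5.10 shares the peak described above. B0334.12 (130 bp, 103.8), antisense within the potassium channel gene twk-5, and Y53F4B.47 (−45 bp, 85.1), near the cap methyltransferase gene cmtr-1, were listed by replicate 1 alone. M03D4.78 (−69 bp, 76.4), near the kinesin gene zen-4, was listed by neither. The signal over these 7 had a median of 85.1, and over the 25 with a pair 115.

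The 8 unbound members with a pair had ranked signals below the lowest of the bound members, 67.9, or none. For comparison, the whole ranked list had a median signal of 20.4 and an upper quartile of 27.9. Unbound members with a ranked summit had a median of 28.1. Y59E1B.14, which overlaps an annotated pseudogene, had a ranked peak of 41.5 with a score of 124, where the lowest score in the list was 830. H04D03.5 had 27.3, ZC395.12 27.6, Y41E3.464 23.0, K09E9.5 33.8, C17D12.8 19.96 and Y40B1A.6 39.0, with scores between 45 and 248. Y6B3B.15 had no ranked summit within 500 bp. Box A began between −72 and −50 bp, as in the bound members, in 4 of the 8. These genes were named because of their small number, after their values were seen.

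Near-identical genes were not always alike in binding. ZK643.9 and K09E9.5 are both 131 bp long and 94.7% identical, with box A at −50 bp, box B at −6 bp and the same pair score of 7.86 in both. The ranked signal was 93.4 at ZK643.9 (53.1 in replicate 1, 40.8 in replicate 2) and 33.8 at K09E9.5 (11.7 in replicate 1, 23.3 in replicate 2), higher at ZK643.9 in both replicates. The values of K09E9.5 are those of the strongest ranked peak within 500 bp of its start. C53B7.8 and C46C2.8 are 94.5% identical and both were bound, with signals of 119.0 and 78.3. F59C6.15 is 97.1% identical to Y67A10A.14 and 94.9% to F25H2.15, both unbound, and its own peak lay 307 bp away. How reads that match several copies were placed is not given in the sources used here, so values at such copies are uncertain. This holds too for the tRNA gene shown above, whose bases are the same as those of WBGene00022931 and WBGene00023165.

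Bound members were mostly short genes with low WormBase identifiers. Their median length was 74 bp (62 to 173), and that of the unbound members was 152 bp (65 to 344). Of the members of 100 bp or less 23 of 45 were bound (51.1%, 37.0 to 65.0), and of the longer ones 9 of 118 (7.63%, 4.06 to 13.9). Of the members with a WormBase identifier below WBGene00100000, 30 of 52 were bound (57.7%, 44.2 to 70.1), and of those with a higher one 2 of 111 (1.80%, 0.496 to 6.33), M03D4.78 and T28B8.11. In the own lists of replicates 1 and 2 these were 25 and 18 of the 52, and 0 of the 111 in either (0 to 3.35). Within the lower identifiers 25 of 28 members with a pair were bound (89.3%, 72.8 to 96.3) and 5 of 24 without (20.8%, 9.24 to 40.5). Within the higher identifiers 0 of 5 members with a pair were bound (0 to 43.4) and 2 of 106 without (1.89%, 0.519 to 6.62). Identifier, length and box pair go together in these genes, and the part of each was not tested. Inside hosts 11 of 50 snoRNA genes of 100 bp or less were bound (22.0%, 12.8 to 35.2) and 16 of 133 longer ones (12.0%, 7.54 to 18.6). By identifier, 22 of 87 lower ones inside hosts were bound (25.3%, 17.3 to 35.3) and 5 of 96 higher ones (5.21%, 2.24 to 11.6). The splits by length and identifier were chosen after the values had been seen.

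Letters placed few members in a class: 142 of the 163, and 24 of the 32 bound ones, had neither the exact C/D letters nor the ACA end. The exact box C (TGATGA in the first 25 bases) and box D (CTGA in the last 20) were found in 8 members, of which 2 were bound, W03C9.9 and F30H5.4. With 1 mismatch allowed in box C there were 23, of which 12 were bound (52.2%, 33.0 to 70.8), and 20 of the 140 others were (14.3%, 9.44 to 21.0). An ACA ending 3 bases before the gene end, the mark of the H/ACA class, was found in 13 members, of which 6 were bound (46.2%, 23.2 to 70.9). These 6 include C53B7.8 and C46C2.8, which also have C/D-like letters, so the letters of these genes fit both classes. The files name no modification target for these RNAs.

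The share bound also varied with the overlap of other genes, on small counts. Antisense to a protein-coding host 7 of 33 were bound (21.2%, 10.7 to 37.8), and with no overlapping gene 16 of 109 (14.7%, 9.24 to 22.5). Of the rest, 0 of 5 inside a same-strand non-coding gene were bound (0 to 43.4), and 9 of 16 with other overlaps (56.2%, 33.2 to 76.9). In 7 of the 32 bound members an ncRNA gene overlaps the snoRNA gene on the opposite strand, and in 10 a protein-coding gene does. In T02E1.9, T27A3.9 and W01C9.6 the protein-coding gene covers only the last few bases of the snoRNA gene. The immunoprecipitated DNA has no strand, so strand cannot assign a peak to 1 gene of such a pair. By chromosome the share was between 8.70% (2 of 23 on X) and 27.8% (10 of 36 on chromosome II), with Wilson intervals that overlap (2.42 to 26.8 and 15.8 to 43.99). The member's own start was the start nearest to the summit for 28 of the 32. Within 500 bp of the summit there was a protein-coding start for 12, another non-coding start for 14, a tRNA start for 1 and no other start for 12.

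Few members lay near the limit of 500 bp. The bound members with the most distant summits were B0334.12 (130 bp), F59C6.15 (307 bp), T28B8.11 (352 bp), C27H5.10 (390 bp) and M163.14 (467 bp). The nearest outside were T27A8.8 (790 bp), F20D12.10 (1042 bp), R166.10 (1797 bp), R11A5.8 (1895 bp) and F37F2.4 (2597 bp). The 5 unbound members with the highest ranked signals were WBGene00220185 (325), K02C4.8 (55.9), C32F10.9 (55.4), C17H12.36 (53.8) and W03B1.17 (51.98). WBGene00220185 stands apart, with the highest possible score of 1000 and signals of 164 in replicate 1 and 168 in replicate 2. Its peak is 1 of 170 ranked peaks that pass the lowest score of the list yet are absent from it, and why they are absent was not tested.

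Genes for the proteins that work with these RNAs were not bound. None of 8 genes for snoRNP proteins was, neither the C/D proteins fib-1 (fibrillarin), nol-56, nol-58 and snu-13 nor the H/ACA proteins dkc-1 (dyskerin), garr-1, nola-3 and Y48A6B.3, and all 8 had a ranked summit within 500 bp. None of 4 genes of the RNA polymerase III apparatus was bound either: rpc-2, brf-1 and tbp-1 had a ranked summit, and rpc-1 had none. The background of 3.82% covers genes with a ranked summit, so rpc-1 does not enter that comparison. Beside it, counts of 0 among the 8 snoRNP genes and 0 among rpc-2, brf-1 and tbp-1 are too small to set these lists apart.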

How the data were processed

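The authors deposited peak lists on ce11 (WBcel235): for each replicate and for both together, a ranked and a thresholded list, and a conservative thresholded list from both, per the labels' file records. The signal (column 7) is the deposited value of the authors' peak caller, of unstated scale; the score (column 5) is the authors' reproducibility (IDR) score, at most 1000. No source used here names the caller, the aligner, their versions or the read totals, so depth is unknown. Signal and score were used within a list, and between the replicates only through ranks (Spearman's rho). No test was run, since there is 1 group.

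Genes came from Ensembl release 115, without piRNA genes, and sequence from RefSeq WBcel235. A gene was bound when a summit fell no more than 500 bp from 1 of its transcript starts; its background was all genes with a ranked summit that near. A replicate's own peak was the one of highest signal among its ranked peaks with a summit within 100 bp of the shared summit. Box matrices used a pseudocount of 0.5 and starts 25 to 80 bp apart. Shares have Wilson 95% intervals. Identity was 100 minus the edit distance as a percentage of the longer gene. Python 3.11.15, pandas 2.3.3, scipy 1.17.1 and edlib 1.3.9.post1 were used, and the code was tested on simulated data.

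The members and gene lists were chosen with earlier results of these data known. Full values are given for the 15 bound members of highest signal; members behind a count of 5 or fewer, nearest the limit, or unbound with the highest ranked signals are named, and any others were named after their values were seen. Alternatives covered other peak lists, windows, host rules, neighbours, motif windows and thresholds.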

Additional observations from a re-analysis of the deposited data

How the results depend on the processing

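Over 9 results, 117 alternatives were computed: 107 stayed within the spread set for each result, 10 moved and 0 reversed. The spread was the 95% interval of the main value, and for the count a factor of 1.5. Only the median offset has a sign, so the other results could not reverse. The results were the members bound (percent and count), the nested genes bound, the median offset and signal, and the shares of bound and unbound members with the box B core and with the box pair. With 1 replicate's own list in place of the conservative list, members bound were 15.9% (without replicate 1) and 21.4% (without replicate 2), or 18 and 25 genes, and nested snoRNA genes bound were 10% and 14.6%. The median offset was −48.5 and −33 bp, and the median signal 59.0 and 63.9, on each list's own scale. The box B core stood at 66.7% and 52% of bound members, and at 8.97% and 8.70% of unbound ones. The box pair stood at 94.4% and 84.0% of bound members, and at 11.03% and 8.70% of unbound ones. With a window of 250 bp the pair stood at 89.3% of the 28 bound members. With a motif window of 150 bp the box B core stood at 3.82% of unbound members. The single replicates' lists and the window of 250 bp hold fewer bound genes, and the motif window of 150 bp holds fewer bases of the same genes. The cause of these moves was not tested further. With host genes counted on either strand, 25 of 130 members were bound. The alternatives for the box pair, the ranked peaks put back into the list and the count of distinct peaks were added after seeing the data. No paired analysis was possible because the 2 samples form 1 group.

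Depth is unknown, so a member outside the lists is not shown to be free of MADF-5, and 18 members had no ranked summit to judge by. Peaks and genes are not replicates, and intervals cover counting error only. The peaks describe whole larvae with a transgenic protein, and the tissue of origin is not resolved.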
